A study of Mus musculus with 12 samples.

Results

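Fully grown oocytes at the germinal vesicle (GV) stage, which are held in prophase of the first meiotic division, were compared between mice with and without the RNA-binding protein LSM14B in their oocytes. The comparison was read from every row of the authors' deposited GV table: 3475 genes of the 23210 that have a row in either of the study's tables. Those 3475 genes had already been selected for a difference between the genotypes, so the text describes their levels, ratios and functions and gives no share of all transcripts. All females were C57BL/6 and 35 days old. Control oocytes (WT) were Lsm14bfl/fl, with both alleles floxed and no Cre. Knockout oocytes (CKO) added Gdf9-cre to these alleles, a recombinase driven by an oocyte promoter that is active from early follicle stages, so follicle cells keep the gene. Each library held a pool of 15 oocytes, and each genotype had 3 GV libraries, replicates 1, 2 and 4, described in the series as biological replicates. Metaphase II (MII) eggs of the same genotypes, 3 libraries each, were used here as a second measure of the same genes.

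A growing mouse oocyte transcribes and stores mRNA, and transcription stops before meiosis resumes. From then on the oocyte depends on stored messages, which are held in ribonucleoprotein particles by proteins that repress translation and protect the message, are given longer or shorter poly(A) tails through elements in their 3′ untranslated regions (UTRs), and are removed by deadenylation and decapping. LSM14B is a member of the LSM14 family of cytoplasmic RNA-binding proteins, which associate with the helicase DDX6 and other repressors in such particles. The question put by the design is which transcripts differ in level when the protein is missing before meiosis resumes.

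Values are normalized counts, the authors' scaled read counts per gene, and means carry the SD over 3 libraries. A gene was counted as called when it was over 2-fold apart with an adjusted p under 0.05 in the authors' deposited table. By that rule 2758 genes were called (79.4%): 1064 genes were higher in CKO, which is 30.6% of the table, and 1694 were lower, which is 48.7%. These shares follow from how the table was filled and nothing is read from them. The other 717 genes, 314 higher and 403 lower, missed the adjusted threshold, 6 of them because no adjusted p was given. At the edge of the fold limit sat Dolk, at 602 ± 36.7 (SD, n = 3) in WT and 301 ± 97.9 in CKO. Values of genes just outside the limit are not analysed here. Across the selected genes, rank correlations were 0.955 to 0.958 among WT libraries and 0.959 to 0.962 among CKO libraries. Selection for a genotype difference favours genes whose replicates are close, so these values cannot show whether a library stood apart. The reads in these genes numbered 6850576 to 11606262 per library, which is not the libraries' full depth.

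The targeted gene was measured first. Lsm14b stood at 30132, 18816 and 19845 normalized counts in WT replicates 1, 2 and 4 and at 1436, 1601 and 1273 in CKO replicates 1, 2 and 4. The CKO libraries lay far below the WT libraries, at 6.26% of the WT mean. Its adjusted p in the authors' deposited table was 4.6e-79.

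Called genes were found at every abundance. The 6-library mean was used to sort the called genes, so neither genotype alone set the class. At 10000 normalized counts or more, 59 genes were higher with a median ratio of means of 2.27-fold and 107 were lower with a median of 2.39-fold, and WT and CKO libraries did not overlap for any of them. Between 1000 and 10000 counts, 332 genes were higher (median 2.35-fold) and 510 lower (median 2.55-fold), without overlap in 99.4% and 99.2%. Between 100 and 1000 counts the numbers were 432 and 650, with medians of 2.95-fold and 3.42-fold. Under 100 counts 241 genes were higher and 427 lower. In that lowest class 141 of the higher and 277 of the lower genes were at 0 in all 3 libraries of the other genotype, and the medians of 28.9-fold and 37.6-fold take those genes at the lower bound that 3 reads over the group allow. A rare gene needs a larger ratio to reach the adjusted threshold, so no dependence of the fold on abundance is read from these classes. With a pseudocount of 10 the median log2 ratio under 100 counts was 2.30 for higher genes instead of 4.85, and -2.30 for lower genes instead of -5.23. Without overlap between genotypes were 995 of the higher genes and 1526 of the lower genes, beside 84% of the whole table. Large ratios among abundant genes were few: over 4-fold were 3 of the 59 higher and 11 of the 107 lower genes in the top class.

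**Figure D1:**
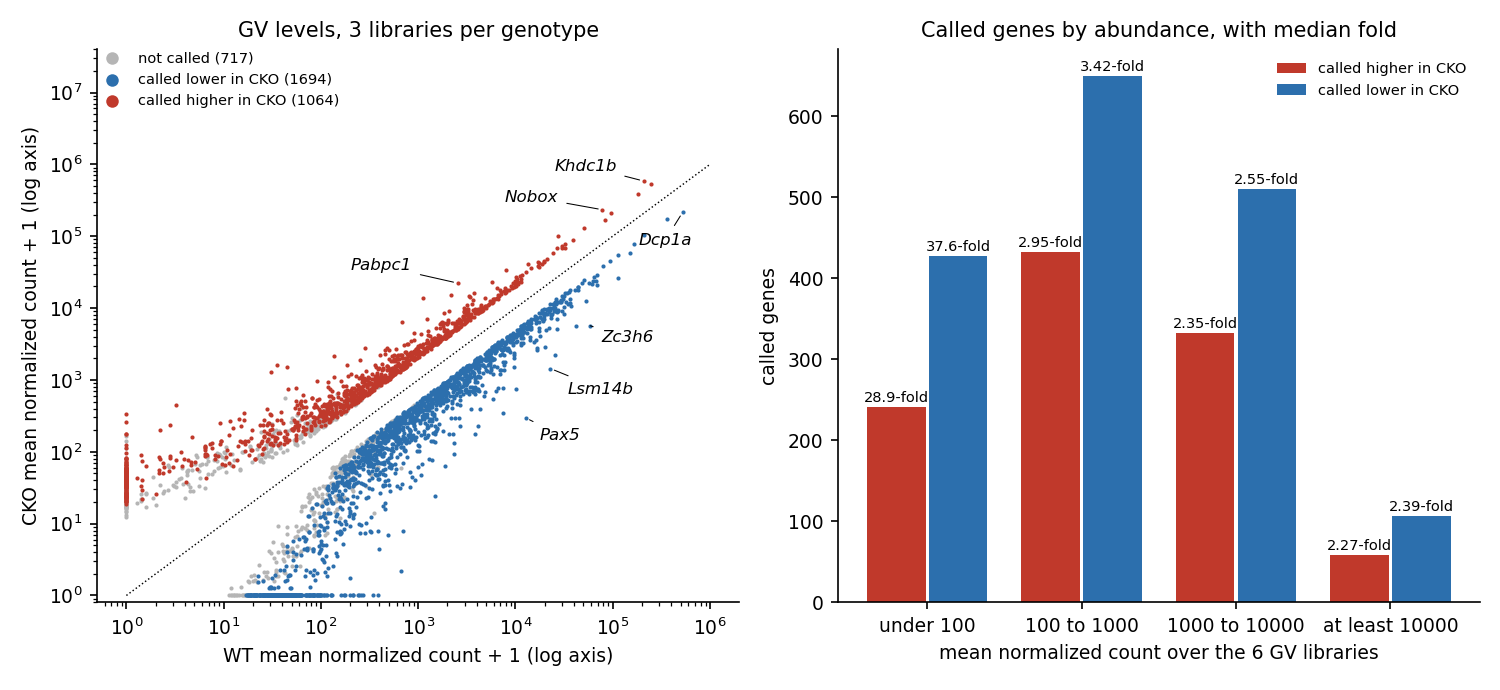
Left, mean normalized count plus 1 in CKO against WT for the 3475 genes of the table (both axes log, dotted line at equality, means of 3 libraries per genotype); right, called genes in each abundance class with the median ratio of means above each bar. The gap along the dotted line is the over 2-fold selection, and the median ratio falls from 28.9-fold and 37.6-fold under 100 counts to 2.27-fold and 2.39-fold at 10000 or more.

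In amount, the rise was concentrated in few genes. Adding the differences of means over all called genes, 18 genes made up 50% of the total rise and 67 genes made up 50% of the total fall. The 10 largest rises carried 42.5% of the rise and the 10 largest falls 23.2% of the fall.

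Genes picked below by size, ratio or gene list came only from those without overlap between genotypes. Separate WT and CKO libraries in them at GV follow from that choice. The largest rise belonged to Khdc1b, of an oocyte-expressed family with a KH-like domain. Its normalized counts were 204772, 238628 and 180809 in WT and 587559, 576949 and 594584 in CKO, so every CKO library lay far above the highest WT library. The ratio of means was 2.82-fold (the authors' deposited table has a log2 fold change of 1.49, SE 0.13, adjusted p = 5.82e-28). Close relatives of Khdc1b and of C87977 (95212 ± 22945 and 213603 ± 15908) exist in the genome, and how reads were divided among them is not given, so these values are uncertain. Nlrp14, an NLR-family gene of the oocyte that early embryos need, stood at 260874, 252630 and 225729 in WT and 502101, 489999 and 583584 in CKO. Its CKO libraries were all above its WT libraries, with a ratio of 2.13. Nobox, the homeobox transcription factor required for follicle growth, stood at 79154, 76602 and 78782 in WT and 254364, 253106 and 194103 in CKO. The WT libraries were close together, CKO replicate 4 was the lowest of the CKO libraries, and the genotypes were 2.99-fold apart (the authors' deposited table has a log2 fold change of 1.58, SE 0.14).

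The other large rises were of several kinds. Eef1a1, which delivers aminoacyl-tRNA to the ribosome, went from 82874 ± 9310.5 in WT to 166493 ± 11677 in CKO. Hsph1, a large heat shock protein that acts as a nucleotide exchange factor for HSP70, went from 27243 ± 1723 to 101475 ± 6562 (3.72-fold). Mid1, a microtubule-associated ubiquitin ligase, went from 50808 ± 6977 to 132104 ± 10739. Its Y-linked pseudogene copy Mid1-ps1 was also called (18632 ± 2759 and 40705 ± 1379). Females carry no Y chromosome, so the reads given to Mid1-ps1 came from elsewhere, and the values of both genes are uncertain. Ankrd52, a regulatory subunit of protein phosphatase 6, went from 30359.5 ± 4892 to 72204 ± 5348, and Sp110, a nuclear body protein, from 32604 ± 7162 to 77535 ± 4478. The mitochondrially encoded mt-Co1, a subunit of cytochrome c oxidase, was 39341 ± 3670.2 in WT and 89191 ± 15075 in CKO. In all 6 of these genes the lowest CKO library exceeded the highest WT library, as the choice of genes without overlap required.

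The largest fall was in Dcp1a, a cofactor of the decapping enzyme. Its normalized counts were 509077, 435786 and 621821 in WT and 234720, 228081 and 179357 in CKO, so every CKO library was below every WT library and the CKO mean was 41.0% of WT (the authors' deposited table has a log2 fold change of -1.29, SE 0.17, adjusted p = 3.8e-12). Hivep1, a large zinc finger transcription factor, was 363911, 323445 and 397455 in WT and 179880, 171066 and 163782 in CKO. Its genotypes were separate by a wide margin relative to the spread. Zc3h6, a CCCH zinc finger gene, had the largest ratio among these falls, at 60152, 57157 and 58995 in WT and 6529.8, 5911 and 4552 in CKO. CKO retained 9.64% of the WT mean of this gene, beside 6.26% for Lsm14b.

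Regulators of transcription and signalling made up much of the rest of this group. Arid1a, a subunit of the BAF chromatin remodelling complex, fell from 167023 ± 43537 to 76847 ± 9836. Hcfc1, a transcriptional coregulator, fell from 151185 ± 28089.8 to 57879.9 ± 7532. Ski, a corepressor of SMAD proteins, fell from 112152 ± 32849.6 to 55246 ± 8297, and the tyrosine phosphatase Ptpn21 from 208429 ± 45704 to 103284 ± 9834. These 4 genes kept between 38.3% and 49.6% of their WT means. Lrp5, a Wnt co-receptor, fell from 94242 ± 7995 to 45488 ± 3228. Wdr20, a partner of the deubiquitinases USP12 and USP46, fell from 69302 ± 12872 to 21050.5 ± 1327, and Ice1, a scaffold of the little elongation complex that acts on small nuclear RNA genes, from 67226 ± 13773 to 23914 ± 2766.

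**Figure D2:**
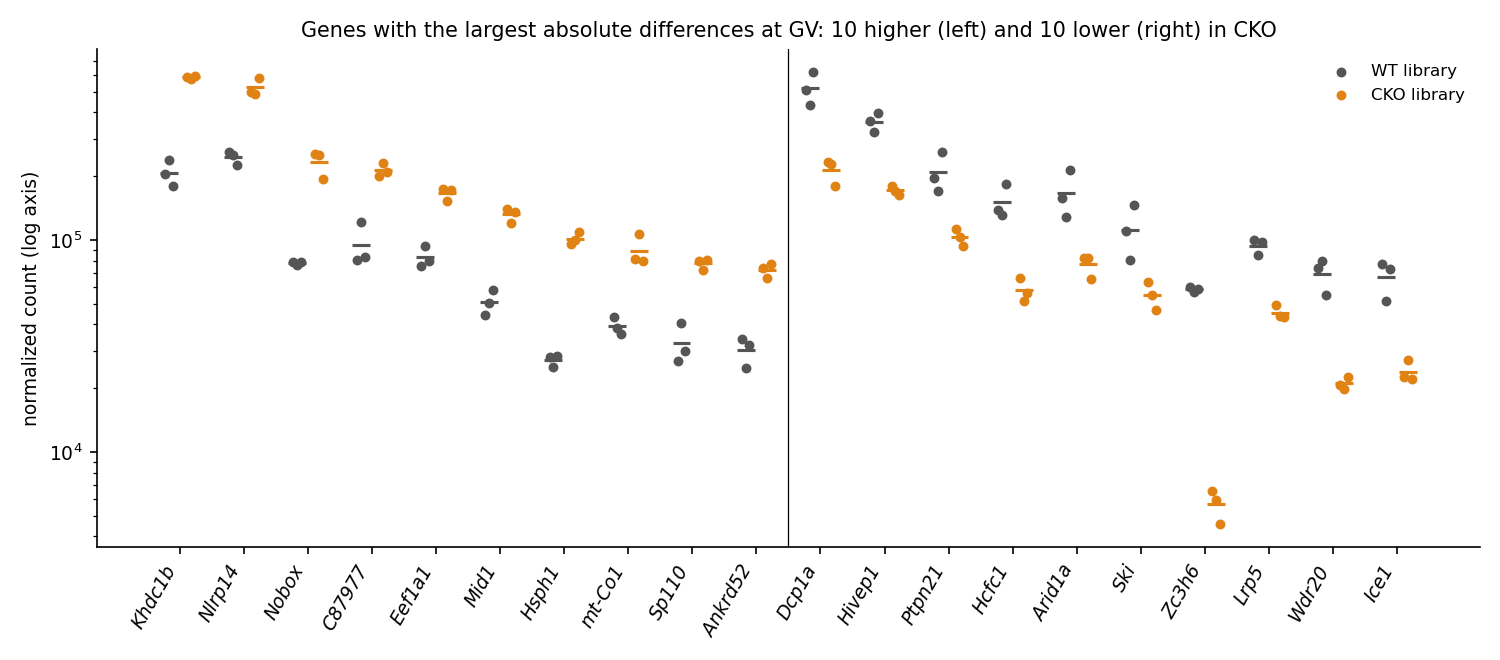
Normalized count in each GV library (points, log axis) and the mean of each genotype (short lines, n = 3) for the 10 largest rises and the 10 largest falls in absolute difference. All 20 genes were chosen among those with separate WT and CKO points, and the widest gap is that of Zc3h6.

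Levels per kilobase of transcript (annotated length, GENCODE M21) allow genes to be set side by side. On that scale Dcp1a and Khdc1b were nearly level in WT, at 93656 and 93054 normalized counts per kilobase, and 38388 and 262238 in CKO. Nobox and Hivep1 were level in WT, at 41299 and 41312 per kilobase, and stood at 123538 and 19602 in CKO. Each pair joins a gene picked as a rise with one picked as a fall, so their different order in CKO follows from the choice.

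The 3′ ends of the most abundant genes were read from the reference, because cytoplasmic polyadenylation of oocyte mRNA depends on U-rich elements close to the poly(A) site. The motifs TTTTAT and TTTTAA were searched on the transcript strand in the last 100 bases of 3′ UTRs of at least that length (GENCODE M21 transcripts, GRCm38). They were present in 43 of 96 lower genes (44.8%) and 14 of 56 higher genes (25%) with a mean of at least 10000 counts, beside 32.9% of 1003 genes of that abundance at MII. From 1000 to 10000 counts the shares were 36.0% of lower and 26.1% of higher genes, beside 33.4%. From 100 to 1000 counts they were 31.7% and 27.6%, beside 30.2%. Under 100 counts the order was the other way, with 23.5% of lower and 28.6% of higher genes, beside 24.7%. In that class only 52.5% of lower and 53.5% of higher genes matched a coding transcript. The motifs can run into the AATAAA poly(A) signal, as they do in Dcp1a. A match to these letters is a description of the annotated end and not evidence of a working element. Among the 26 abundant genes that the naming rule picked, 6 of 13 lower and 4 of 13 higher genes had a match. In this count no minimum length was set, and mt-Co1, which is mitochondrially encoded, stands among the higher genes without a match. The last match in some of them is shown in capitals with its neighbouring bases, the lower genes first, 5′ to 3′ as DNA letters of the transcript strand.
Dcp1a, chr14:30527015-30527044, plus strand: atatttTTTTAAtaaaatttcaaaaccaag
Ice1, chr13:70588703-70588732, minus strand: atgtgtTTTTATaataaaaaataaaagcaa
Wdr20, chr12:110794977-110795006, plus strand: tagtcaTTTTATgacaattaaaattgttta
Pabpn1l, chr8:122619512-122619541, minus strand: gagtacTTTTAAagaaaaatagatatgtgt
Lrp5, chr19:3584828-3584845, minus strand: ttaattTTTTAAaacata
Glis3, chr19:28258851-28258872, minus strand: taaagcTTTTATacatgtttta
Eef1a1, chr9:78478501-78478530, minus strand: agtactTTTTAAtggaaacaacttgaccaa
Pabpc1, chr15:36595722-36595751, minus strand: gctctgTTTTAAggagcagaactgatgact
Gli3, chr13:15729944-15729973, plus strand: tagtccTTTTATaacaaagaaaaaaataaa
Khdc1b, chr1:21386359-21386373, plus strand: agtttgTTTTATtta
In Dcp1a, Ice1 and Pabpn1l the capital letters start 43, 30 and 65 bases before the annotated transcript end, and in Eef1a1 and Pabpc1 76 and 85 bases before it.

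Annotated length and coding composition also differed between the directions. In the top abundance class the median transcript was 4653 bases for lower genes and 2630 for higher genes, with 4071 for genes of that abundance at MII. The median 3′ UTR was 1508 bases in lower and 700.0 bases in higher genes, against 1253. From 1000 to 10000 counts the 3′ UTR medians were 1417.5 and 792.5 bases, against 1183. The share of G or C at the third codon position had medians of 60.7% in lower and 53.8% in higher genes of the top class. These classes were used because 91.6% to 96.6% of their genes matched a coding transcript, whereas the match over all called genes was 77.8% and 75.3% and too low for the same check.

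Away from the top class, the largest ratios belonged to genes close to absent in one genotype. Among genes of 100 to 1000 counts, Hdx, an X-linked homeobox gene, was 0, 43.7 and 58.4 in WT and 2081, 1643 and 1182 in CKO. WT replicate 1 had no read of Hdx and every CKO library had over 1000 counts. Tceal8, an X-linked relative of an elongation factor, went from 29.9 ± 30.1 to 1304 ± 569, and Stambpl1, a deubiquitinase of lysine-63 chains, from 44.0 ± 40.1 to 1489 ± 304. Irf2bpl was 0, 5.46 and 0 in WT and 46.1, 311 and 338 in CKO, where replicate 1 was well below the other two. In the next class the largest rise was that of the keratin gene Krt79, from 136 ± 33.3 to 2172 ± 563.

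Losses of the same kind were seen in genes of 100 to 1000 counts. Adgrb1, an adhesion G protein-coupled receptor, was 874, 393 and 710.4 in WT and 1.71, 0 and 1.91 in CKO. Srrm4, a splicing factor best known from neurons, was 488 ± 98.5 in WT and 5.96 ± 5.17 in CKO, and Ankrd34c was 556, 281 and 337 and 3.41, 6.97 and 0. Mpo, the peroxidase of neutrophil granules, was 1086, 393 and 601 in WT and 0, 17.8 and 2.86 in CKO. All 3 CKO libraries were close to 0 in these 4 genes and all 3 WT libraries were well above them. Among abundant genes the Krüppel-like zinc finger gene Glis3 kept 13.5% of its WT mean (42119 ± 1374 and 5681 ± 2008).

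In 143 called higher and 285 called lower genes one genotype had no read in any library. These were rare transcripts, with median 6-library means of 19.5 and 18.8 counts. The most abundant named examples among the rises were Nox4, an NADPH oxidase, at 421, 70.5 and 525 in CKO, the exonuclease gene Trex2 at 279, 93.7 and 156 and the cadherin Cdh10 at 147, 152 and 227. Counting 3 reads over the WT group as the floor, these rose at least 292-fold, 152-fold and 151-fold. Usp17lb, at 254, 256 and 259, belongs to a cluster of near-identical deubiquitinase copies and is uncertain. Among the losses, Ap5b1, a subunit of an adaptor complex of late endosomes, was 444, 396 and 317 in WT, which makes it at least 448-fold lower in CKO. The complement gene C4b was 374, 333 and 308 in WT and at least 393-fold lower in CKO. Ppargc1a, the coactivator of mitochondrial biogenesis, was 261, 265 and 209 in WT and at least 284-fold lower. The forkhead gene Foxn4 was 101, 172 and 538 in WT and at least 314-fold lower. Foxn4 varied more between WT libraries than the other 3. At MII the log2 differences of CKO from WT were 0.34 for Ap5b1, -6.43 for C4b, -2.88 for Ppargc1a and -4.58 for Foxn4. Leaving out 1 MII library at a time, that of Ap5b1 ranged from -1.46 to 2.32. In the lowest class some genes had 1 to 3 reads in one genotype, among them the kinase gene Fes (0.414 ± 0.717 and 89.7 ± 55.2) and Nos3, endothelial nitric oxide synthase (197 ± 41.0 and 0.774 ± 1.34), and for these no ratio is given.

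The called genes were then read by function over 59 gene lists. Counts are of members with a row in either table, and a member missing from the GV table has no GV value here. The median log2 fold change over the whole GV table was -1.22 in the authors' deposited table, which is the value to set beside a list's median. Over all 23210 genes with a row 4.58% were called higher and 7.3% lower, and 61.4% of the called genes were lower, which are the shares to set beside a list's counts. Whether a list differs from those shares was not tested, and most members of most lists were not called.

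Called protein folding genes were mostly rises. Of 66 heat shock and chaperone genes, 7 were called higher and 2 lower, and the median of the 9 in the table was 1.35. Cct4, a subunit of the CCT chaperonin that folds actin and tubulin, was 4117, 3248 and 3840.3 in WT and 16158, 15912 and 16595 in CKO. The other CCT subunits called, Cct3, Cct6a and Cct7, were also higher. Hspa5, the HSP70 of the endoplasmic reticulum, went from 13405 ± 1525 to 41435 ± 1887. The 2 falls were Hspb11 and Pfdn4, a prefoldin subunit that hands substrates to CCT, which dropped from 9604 ± 2515 to 1504 ± 249.8. The substrates of that pathway, cytoplasmic Actg1 and Actb, rose from 14585 ± 1239.7 to 36086 ± 353 and from 7730.0 ± 553 to 16272 ± 1089.

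Called genes that remove peroxides and conjugate glutathione all rose. Of 50 such genes, 10 were called higher and 0 lower, with a median of 1.80 over the 11 in the table. Prdx6 was 584, 1086 and 657 in WT and 3163, 3049 and 3337 in CKO. Prdx3, the peroxiredoxin of mitochondria, went from 789 ± 112 to 2142 ± 221, Prdx4, that of the endoplasmic reticulum, from 58.4 ± 29.2 to 389 ± 60.5, and the glutathione peroxidase Gpx1 from 303 ± 39.8 to 1106 ± 159.9. Cat, Gstk1, Gsto1, Txn1, Gstp1 and Gstp2 were also called higher, the last pair being near-identical. Most of these genes were of moderate level.

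Called energy and lipid genes were higher in part, and most members of these lists were not called. Of 59 genes of glycolysis, pyruvate dehydrogenase and the TCA cycle, 4 were higher and 0 lower. Mdh1, malate dehydrogenase of the cytosol, went from 4947 ± 919 to 10661 ± 1361 and Idh3g, of the TCA cycle, from 3213 ± 671 to 6557 ± 332. Pdha2, the autosomal retrogene for the E1 alpha subunit of pyruvate dehydrogenase, went from 184 ± 86.6 to 1637 ± 573, and Gapdh, which has many processed copies, from 373 ± 88.4 to 1230.1 ± 65.8. Of 77 cholesterol and fatty acid genes, 8 were higher and 5 lower. Plin2, which coats lipid droplets, was 1214, 1452 and 994 in WT and 7019, 6746 and 7329 in CKO, a separation much wider than the spread. The mitochondrial acyl-CoA dehydrogenase Acadvl rose from 642 ± 83.4 to 1954 ± 251. Synthesis enzymes Fdps, Sqle and Dhcr7 were higher, whereas Srebf1 and Srebf2, which encode the factors that switch such enzymes on, were lower, as was Scarb1, a receptor for high-density lipoprotein (3206 ± 308 and 942 ± 161). Of 68 autophagy and lysosome genes, 8 were higher and 2 lower, led by Atg16l1, which helps attach LC3 to membranes (17095 ± 1886 and 43638 ± 3157).

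Of 77 mitochondrial ribosomal protein genes, 14 were called lower, 1 higher and 62 were not called, and the median of the 17 in the table was -1.22, the same as over the whole table. Mrps18a was 1724, 1776 and 1943 in WT and 497, 476 and 470.3 in CKO, where the 3 libraries were almost equal. Mrpl10 fell from 6392 ± 305 to 2986 ± 348 and Mrpl2 from 6307 ± 960.2 to 2922 ± 751. The exception was Mrpl20, which was 129, 165 and 103 in WT and 644, 506 and 525 in CKO. For comparison, 5 of 89 cytosolic ribosomal protein genes were higher and 3 lower, and 0 of 54 translation initiation factor genes was in the GV table.

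Proteins that act on mRNA stood on both sides. Of 55 translational regulators, 5 were higher and 9 lower, with Elavl1, G3bp1 and Ddx6 among the rises and Cpeb2, Cpeb4, Msi2, Bicc1, Samd4 and Samd4b among the falls. Ddx6, the helicase partner of LSM14 proteins, was 4487, 2738 and 3757 in WT and 9981, 9770.4 and 8893 in CKO. All 3 CKO libraries were above the highest WT library, which the choice of genes without overlap required. Pabpc1, the cytoplasmic poly(A)-binding protein of somatic cells, had the largest ratio among the named rises of the top class (2539 ± 1021 and 22277 ± 2752), while Pabpn1l, an oocyte-specific poly(A)-binding protein, fell from 25480.1 ± 1386 to 2233 ± 585. Of 59 deadenylation and decay genes, 0 were higher and 7 lower. Besides Dcp1a these were the CCR4-NOT genes Cnot3 (63924 ± 7312 and 26807 ± 1566) and Cnot6 (3577 ± 286 and 1273 ± 114), the uridylyltransferase Tut7, and the RNA exosome genes Exosc3 (2156 ± 169 and 296 ± 124), Exosc4 and Exosc10.

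Receptors and ligands of developmental signalling were among the calls in both directions. Of 51 Wnt genes 2 were higher and 6 lower. Wls, the carrier that brings Wnt ligands to the cell surface, rose from 2173 ± 768 to 15439 ± 2365. Co-receptors Lrp5 and Lrp6 fell together, the latter from 78980.5 ± 11385 to 38596 ± 2677, as did Rnf43, a ubiquitin ligase that removes Wnt receptors (3839 ± 632 and 936 ± 163). Of 32 Notch and Hedgehog genes 1 was higher, the Hedgehog effector Gli3 (8009.8 ± 3032 and 34281 ± 3866), and 5 were lower, among them the receptors Notch1 and Notch2 (12239.7 ± 3128 and 4572 ± 237 for the latter) and the glycosyltransferase Mfng. Of 39 receptor tyrosine kinases 2 were higher and 6 lower. Epha7 was the leading rise (479 ± 150.5 and 2780.5 ± 487) and Flt1, a receptor of vascular endothelial growth factor, the leading fall (1079 ± 390.0 and 46.9 ± 26.3). The falls also held Kdr, Tie1 and Pdgfra, which are in the list of theca, stroma and endothelium markers given with the other cell types, and Flt1 is itself known from endothelium. Of 66 Ras and MAP kinase genes 1 was higher, Mapk7 (1045 ± 231 and 3044 ± 566), and 7 lower, with the inhibitor Spry1 at 7425 ± 986 and 780.1 ± 117.

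Guidance and adhesion genes were also called in both directions. Of 52 ephrin and axon guidance genes 4 were higher and 10 lower. Efna1 stood at 7956, 4758 and 5259 in WT and 1508, 1599.9 and 1639 in CKO, and Ntn1, which encodes netrin 1, dropped from 4517 ± 569 to 843 ± 265. Of 58 adhesion and junction genes 4 were higher and 9 lower. Claudins went both ways: Cldn15 rose from 2933 ± 656 to 8893 ± 1415, and Cldn4 and Cldn9 fell from 5033 ± 1043 to 1994 ± 96.1 and from 605 ± 112 to 141 ± 14.4. Of 39 myosin genes 0 were higher and 5 lower, led by level by Myo1c (28548 ± 6774 and 12236 ± 2219).

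Channels and transporters were read next. Of 50 potassium channel genes, 0 were higher and 8 lower. Kcnh3, a voltage-gated channel, was 6195, 4981 and 6469.7 in WT and 375, 352 and 898 in CKO. Kcnq1 fell from 9559 ± 1387 to 4140.3 ± 506 and the auxiliary subunit Kcnmb3 from 4111 ± 399 to 1646 ± 449. Of 303 solute carriers 18 were higher and 32 lower, a split close to that of all called genes, with the zinc transporter Slc30a2 among the rises (4107 ± 1222 and 9585 ± 2774) and the urate transporter Slc2a9 among the falls (1347 ± 63.3 and 142 ± 34.8). In the cyclic AMP pathway, which holds GV oocytes in prophase, 5 of 45 genes were higher and 6 lower. Gpr3, whose receptor activates cyclic AMP synthesis, was 24013, 19114 and 38023 in WT and 6711, 7119.7 and 6973 in CKO, and Gnas, the G protein alpha subunit it acts through, rose from 9504 ± 2213 to 22288 ± 2362.

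Regulators of ubiquitin were read by class. Of 70 RING finger genes named Rnf, 0 were higher and 6 lower, with Rnf139, a ligase of the endoplasmic reticulum, at 11502 ± 2479 and 3292 ± 406. Of 33 conjugating enzymes 3 were higher and 0 lower: Ube2e1 (1601 ± 168 and 3718 ± 188), Ube2v1 (3292 ± 639 and 7751 ± 427) and Ube2v2. Of 62 deubiquitinating enzymes and of 74 F-box genes 3 were higher and 3 lower each, and of 49 TRIM genes 4 were higher and 3 lower. No difference between these classes was tested.

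Transcription factors and chromatin genes changed in both directions. Of 112 developmental transcription factors 4 were higher and 11 lower. Sox8 was 30409.6, 31215 and 32976 in WT and 9164, 9976 and 12114 in CKO, and Pax2 fell from 3467 ± 1086 to 397 ± 92.3. Tfap2c, which encodes AP-2 gamma, fell from 4294 ± 569 to 388 ± 141 while Nobox rose. Of 27 genes of DNA methylation and imprint control 5 were higher and 1 lower. Kdm1b, the histone demethylase that oocytes need for imprints, was 34705, 27115 and 34024 in WT and 65820.5, 60950.2 and 76275 in CKO. Setd2, the histone H3 lysine-36 methyltransferase, rose from 19809 ± 5862 to 44901 ± 2415, and Trim28, the corepressor of KRAB zinc finger proteins, from 7737 ± 224 to 18950 ± 1081. Of 352 zinc finger genes named Zfp, 18 were higher and 31 lower. Kdm7a, a demethylase of repressive histone marks, fell from 19980.3 ± 2729 to 2875 ± 825. Of 66 histone genes 2 were higher and 7 lower, with H2ax at 11470.2 ± 1466 and 3035 ± 613. Histone copies share sequence, and most lack poly(A) tails, so their counts depend on how the libraries were made.

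Genes of the meiotic divisions were called in both directions. Of 83 kinetochore, spindle and centrosome genes 5 were higher and 1 lower. Haus8 and Haus7, subunits of the augmin complex that branches microtubules, rose from 10159.8 ± 1566 to 27261 ± 322 and from 2710.3 ± 650.5 to 6793 ± 816, and the centromeric histone gene Cenpa fell from 2506 ± 198 to 1141 ± 247. Of 28 cohesin and condensin genes 1 was higher, Smc1a (6143 ± 1399 and 13565 ± 954), and 4 lower. Those included Esco1, which acetylates cohesin (9452 ± 981 and 3072 ± 191), and Pds5a (2422 ± 391 and 619 ± 149). Of 64 nuclear pore and transport genes 3 were higher and 5 lower, with Pom121, a membrane pore protein, at 61402 ± 13489.6 and 21688 ± 2056.

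**Figure D3:**
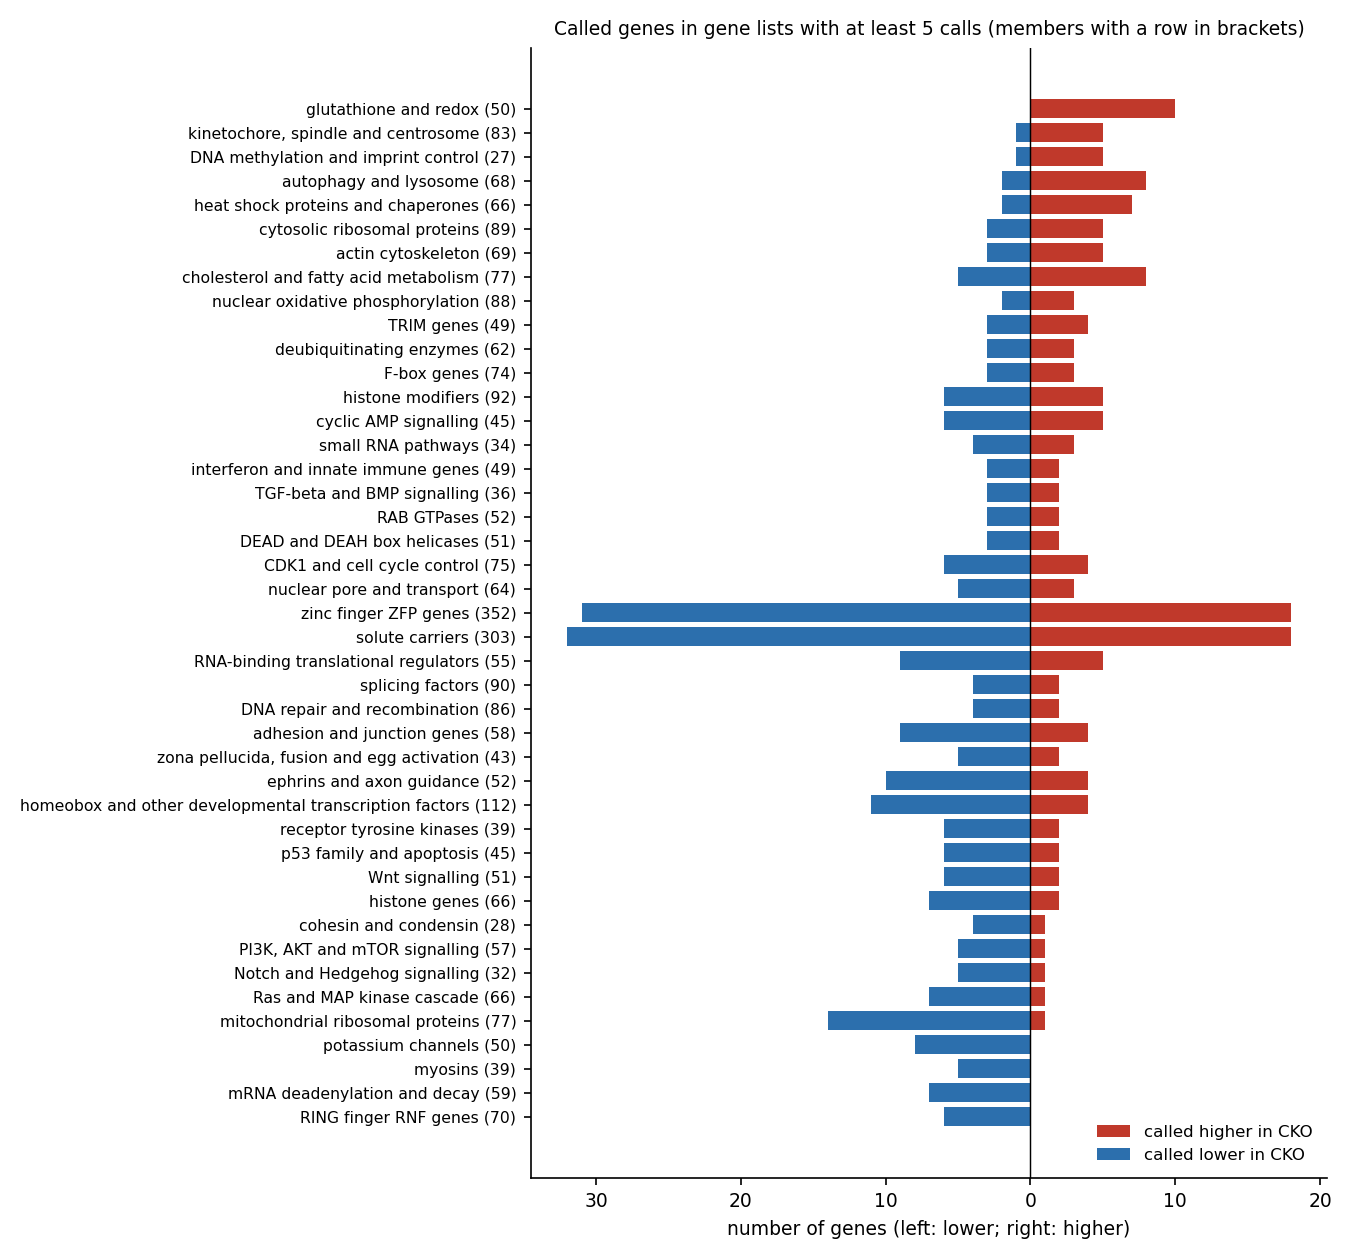
Number of genes called higher (right, red) and lower (left, blue) in CKO at GV in each gene list with at least 5 calls; the number of members with a row is in brackets. Lists are ordered by the share of their calls that were higher, from glutathione and redox genes (10 higher, 0 lower) to lists with 0 higher such as potassium channels (8 lower).

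Markers of oocytes and of cells that could accompany them were checked. Of 15 oocyte markers, among them Gdf9, Zp3 and Ddx4, 14 had a row and none was in the GV table, so their GV levels are not known here. The same 14 summed to 702001 to 1085224 normalized counts in WT and 707561 to 821205 in CKO libraries at MII. Of 25 cumulus and granulosa markers 15 had a row and 1 was in the GV table, Runx2, at 826, 621 and 867 in WT and 1319.8, 1980.1 and 2659 in CKO. Of 13 markers of theca, stroma and endothelium, 4 were in the table, all called lower. Their summed level was 963 to 2032 in WT libraries and 127 to 372 in CKO libraries, mostly from Tie1, and Kdr and Col1a2 were at 0 in every CKO library. At MII the 9 members with a row summed to 3760 to 4838 in WT and 3957 to 4695 in CKO, which overlapped. That sum also holds the members without a GV value, so it is not a repeat of the GV sum. The 3 called members tested at MII were lower in CKO there too. Their log2 differences were -5.09 for Kdr, -1.61 for Tie1 and -1.86 for Pdgfra, and limma called none of them. Of 12 blood and immune markers 2 were called, C1qb lower (1869 ± 174 and 807 ± 68.2) and Cd68 higher (94.7 ± 13.3 and 270.0 ± 84.1), with summed levels of 1825 to 2162 in WT and 1026 to 1129 in CKO. At MII the 5 blood and immune markers with a row summed to 1118 to 1973 in WT and 194 to 255 in CKO, and the 15 cumulus and granulosa markers to 2887 to 5355 and 4309 to 6051. Of 7 sperm and early embryo markers 2 had a row and 1 was called lower at GV, at 0 to 105 in WT libraries and 0 in CKO libraries. At MII these 2 summed to 3219 to 6447 in WT and 5484 to 8320 in CKO. In pools of oocytes, fewer cells of another type and less of such RNA per cell cannot be told apart. The part of these markers in the falls of Flt1, Mpo, Nos3 and the other receptor tyrosine kinase genes was not tested.

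The direction of the calls was uneven across the genome (GENCODE M21 positions). On the X chromosome 87 called genes were higher and 38 lower, so 69.6% were higher. Over the autosomes 950 of 2564 called genes were higher (37.1%), with a range from 28.0% on chromosome 11 to 48% on chromosome 13. X-linked genes made up 8.18% of the higher calls and 2.24% of the lower calls, beside 3.72% of all genes tested at MII. At 1000 counts or more, 33 X-linked genes were higher and 18 lower. Besides Mid1, Hdx and Tceal8 the rises included Hnrnph2, an RNA-binding splicing regulator (3134 ± 356 and 8500.0 ± 456), and the innate immune receptor Tlr8 (1113 ± 296 and 3181 ± 957). Hcfc1 was the most abundant X-linked fall.

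**Figure D4:**
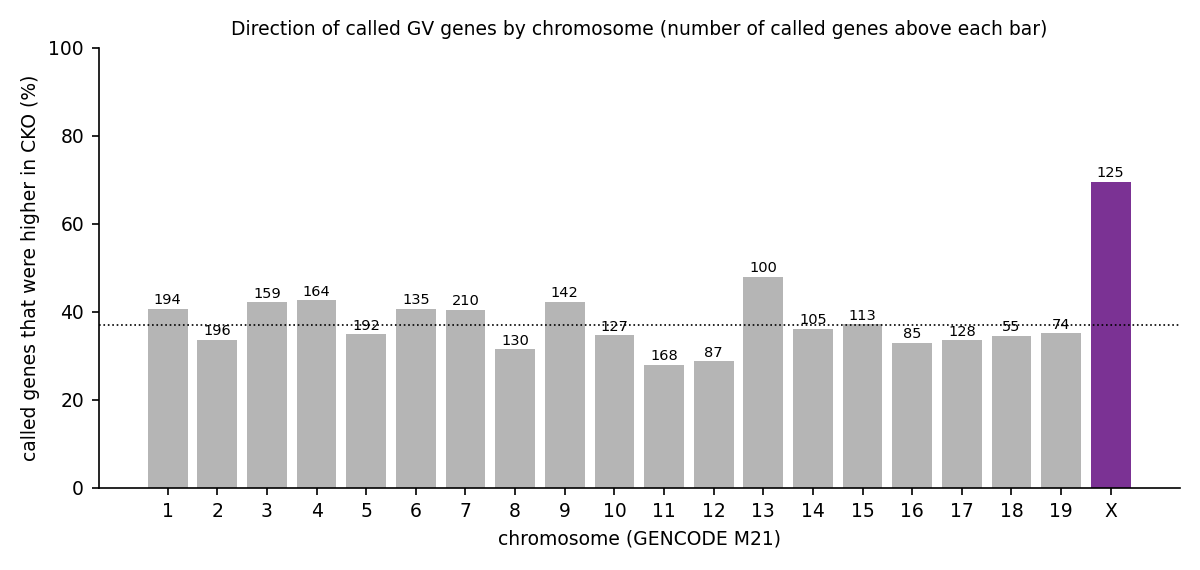
Percentage of called GV genes that were higher in CKO on each autosome and the X chromosome, with the number of called genes above each bar and the autosomal value of 37.1% as a dotted line. The X chromosome bar is at 69.6% and the highest autosome is chromosome 13 at 48%.

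Long noncoding transcripts leaned towards lower levels. Of 313 called long noncoding genes 82 were higher and 231 lower (73.8% lower), against 828 and 1278 of 2106 protein-coding genes (60.7% lower). Of 193 called pseudogenes 99 were higher and 94 lower. Antisense transcripts, 24 higher and 62 lower, are uncertain because the strand setting of the counting is not given.

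The MII libraries took no part in choosing the GV genes and gave a second measure of them. There limma was fitted to log2(normalized count + 1) of all 20388 genes with a mean of at least 1. Of the genes called higher at GV, 949 were tested at MII and 845 (89.0%) were higher in CKO there too, with a median log2 difference of 1.38. Of the genes called lower at GV, 1543 were tested and 1371 (88.9%) were lower, with a median of -1.53. Over all tested genes 46.5% were higher and the median was -0.11. CKO libraries lay entirely above WT libraries at MII in 437 GV-higher genes (46.0%), beside 10.4% of all tested genes, and entirely below in 700 GV-lower genes (45.4%), beside 12%. At an adjusted p under 0.05, limma called 67 GV-higher genes higher (7.06%, beside 0.52% of all tested genes) and 159 GV-lower genes lower (10.3%, beside 0.991%). No GV gene was called in the opposite direction, and 226 of the 308 genes called at MII (73.4%) were called at GV.

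The number of MII calls depended on single libraries. WT replicate 3 at MII stood apart from the others and was the deepest, and all 3 WT libraries there had more reads than any CKO library. Without it 115 GV-higher and 255 GV-lower genes were called. Without any one of the other 5 MII libraries 0 were called in either direction by limma, while 255 to 307 GV-higher and 474 to 560 GV-lower genes had an unadjusted p under 0.05 in the same direction. The shared direction did not need those calls, and lay between 83.8% and 90.5% for the higher and between 80.7% and 93.1% for the lower genes under every alternative run. It was also more frequent among abundant genes, at 94.9% and 94.3% from 1000 to 10000 counts against 73.5% and 81.7% under 100 counts.

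Several strong GV differences had large values at MII. Hsph1 differed there by 2.59 (SE 0.35), Cct4 by 2.79 (SE 0.37) and Nobox by 2.02 (SE 0.38) on the log2 scale, and Zc3h6 by -3.36 (SE 0.29), Spry1 by -3.26 (SE 0.35) and Kcnh3 by -5.25 (SE 0.43). All 6 had an adjusted p under 0.05 by limma with all libraries. The redox genes had the same direction at MII in 9 of 10 called members. The mitochondrial ribosomal genes had it in 12 of the 12 lower members tested, but not in the 1 higher member, Mrpl20 (-0.22). X-linked genes had the same direction in 75 of 78 higher and 31 of 37 lower genes. These counts stand beside 89.0% of all GV-higher and 88.9% of all GV-lower genes, and no difference from those shares was tested. Over all tested X-linked genes the MII median was 0.11, against -0.12 on autosomes. Leaving out 1 MII library at a time, the X median ranged from 0.01 to 0.14 and the autosomal median from -0.16 to 0. With the replicate number as a block the medians were 0 and -0.02. Long noncoding genes had a median of -0.79 at MII, or -0.28 over the 441 with a mean of at least 100 counts, against -0.06 and 0.01 for coding genes. Many of them were at low counts and the CKO libraries at MII were the shallower ones, and the part of depth in these medians was not tested. Genes with a TTTTAT or TTTTAA motif in the last 100 bases had a median of -0.20 (3983 genes), against 0.01 for those without (9464 genes). Over tested genes with a coding transcript, the MII median was -0.21 for transcripts of 63 to 1660 bases and 0.04 at 4911 bases or more. For 3′ UTRs it was -0.04 at 274 bases or less, -0.10 to -0.06 from 275 to 2323, and -0.01 above. By the share of G or C at the third codon position, the medians were -0.27 at 69.2% or more and 0.02 at 48.4% or less. The motif, length and codon values at MII cover tested genes of any abundance, unlike the selected abundant genes read at GV. The stages can therefore not be compared by them, and these differences were not tested.

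The most abundant falls had small values at MII. Dcp1a had an MII log2 difference of -0.44 (SE 0.38) and Hivep1 one of 0.06 (SE 0.44). The chromatin and transcription genes Arid1a, Hcfc1 and Ski had -0.05 (SE 0.32), -0.08 (SE 0.60) and -0.38 (SE 0.34), and the phosphatase gene Ptpn21 -0.18 (SE 0.39). Limma called none of these 6 genes. Without WT replicate 3 these 6 values lay between -0.83 and -0.19. The median over the 107 lower genes of the top class was -0.93 at MII, against a median log2 ratio of -1.26 at GV. The tables were scaled separately and the difference between stages was not tested. Among rises, mt-Co1 had an MII value of -0.54 (SE 0.61), which became 0.19 without WT replicate 3, and Trim28 had -0.14 (SE 0.44), which became 0.32.

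**Figure D5:**
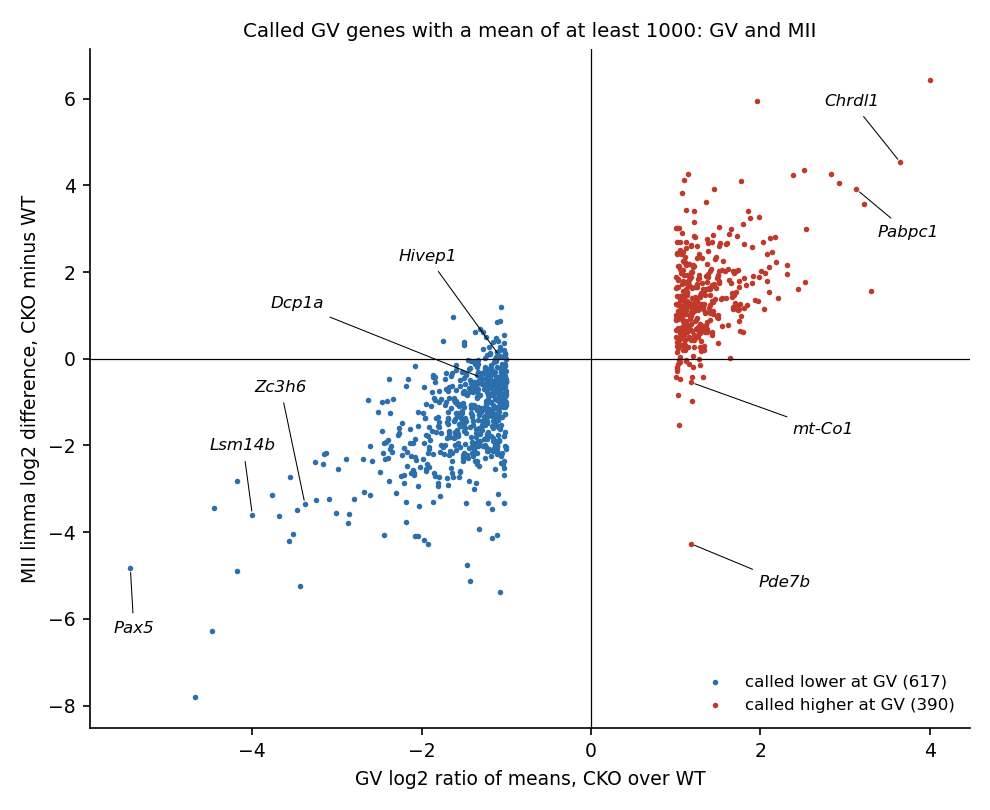
MII log2 difference from limma against the GV log2 ratio of means for the 390 higher and 617 lower GV genes with a 6-library mean of at least 1000 that were tested at MII (1 point per gene). Most points lie in the 2 quadrants of shared direction, while Hivep1 and Dcp1a lie close to an MII difference of 0 and Pde7b at -4.26.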

How the data were processed

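The aligner, genome build, counting tool and use of strand are each not given in the sources used here. Each gene's value per library was deposited by the authors as log10(normalized count + 1), which was found from the values: turned back to normalized counts, they average to the mean signal deposited beside them. Per the file headers the authors also deposited a log2 fold change, its standard error and test score, and a p-value and adjusted p-value for each gene. The GV table holds only genes with an unadjusted p under 0.05 and over 2-fold, so no test was fitted to it, and GV fold changes and adjusted p-values are the authors'. Whole reads were recovered (100% of values within 0.05 of whole multiples of a constant per library). Scaling within the tables hides any change of total RNA per oocyte, and tables were scaled separately.

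At MII a model with a mean-variance trend was fitted by limma 3.58.1 (R 4.3.3) to values as log2(normalized count + 1) over 20388 genes with a mean of at least 1, with Benjamini-Hochberg adjustment. The planned test for raw counts was not the main one because the unit was a log value; limma-voom on recovered reads was an alternative. The procedure was tested on simulated data. Other alternatives were the pseudocount, filters, library size alone, array weights, the replicate block and leaving out each library. Python 3.11.15, numpy 2.4.6 and pandas 2.3.3 were used for all else.

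Genes named were Lsm14b and, among called genes without overlap between genotypes and leaving out predicted models and pseudogenes, per direction the 10 largest differences of means, the 4 largest ratios in each abundance class, the 4 most abundant genes at 0 in the other genotype, from each list the 4 or fewer members of smallest deposited p, and the 4 smallest MII p-values. Dolk, Mid1-ps1 and list members given without values fall outside that rule, and were chosen after their values were seen. The genes, 59 lists and 5 marker lists were chosen with earlier results of these data known. Biotypes, chromosomes and 3′ ends came from GENCODE M21 (GRCm38), matched by symbol for 3383 of the 3475 genes (97.4%). Ratios against a group at 0 use a floor of 3 reads over the group.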

Additional observations from a re-analysis of the deposited data

Results flagged for a closer look

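Pde7b, a cyclic AMP phosphodiesterase gene, moved in opposite directions at the 2 stages, with every CKO library on one side at each. At GV its normalized counts were 989.6 ± 71.3 (SD, n = 3) in WT and 2240.1 ± 37.3 in CKO (the authors' deposited table has a log2 fold change of 1.18). At MII they were 69.0 ± 43.9 in WT and 11 ± 19 in CKO, with a limma log2 difference of -4.26 (SE 1.63, adjusted p = 0.238). The MII levels were low, and the difference between the stages was not tested.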

How the results depend on the processing

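At GV the counts of 1064 higher and 1694 lower genes stayed within 1.5 times under every alternative run, among them a stricter adjusted p of 0.01 (803 higher). These alternatives were applied to genes already selected for the difference, with no new test. Their closeness was thus largely set by the selection and does not measure how robust the calls are. Median log2 ratios of the rarest genes moved: under 100 counts, 4.85 for higher genes became 2.30 with a pseudocount of 10, and -5.23 for lower genes became -4.98 with a pseudocount of 1 and -2.30 with 10. Leaving out 1 GV library gave 4.48 to 4.87 for the higher and -5.29 to -5.03 for the lower genes. From 100 to 1000 counts the lower median of -1.77 became -1.69 with a pseudocount of 10 and ranged from -1.82 to -1.76 with 1 library left out. At MII the 67 shared higher and 159 shared lower calls became 0 and 0 with a replicate block (136 and 312 at an unadjusted p under 0.05), 346 and 719 with array weights, an alternative chosen after seeing the data, and the lower calls 63 with limma-voom. Leaving out 1 MII library gave 0 to 115 higher and 0 to 255 lower calls. The cause was not tested. Replicate numbers did not pair the libraries: same-numbered deviations correlated at -0.01, 0.02 and 0.00 at GV and at 0.01 and -0.10 at MII. At GV the block was read as the same direction in all 3 same-numbered pairs, met by 1006 higher and 1548 lower genes. Depth limits genes under 100 counts most, and the full GV depth is unknown.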

Other observations

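A set of 57 called GV genes with a 6-library mean of at least 1000 had the opposite sign at MII, and limma called none of them there. It included Pcna, the sliding clamp of DNA replication, at 9605 ± 2225 in WT and 19368 ± 2156 in CKO at GV with an MII log2 difference of -0.28 (SE 0.50), and Rnf123, a ubiquitin ligase, at 5126 ± 496 and 2435 ± 256 with 0.87 (SE 0.66).

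Of 45 p53 family and apoptosis genes 2 were higher and 6 lower at GV. Trp53 rose from 3197 ± 475 to 8038 ± 652, whereas its relative Trp73 fell from 3355 ± 211 to 694 ± 188. Among small RNA pathway genes Mael, which acts with PIWI proteins, rose from 2624 ± 456 to 7071 ± 1061, and Xpo5, the exporter of microRNA precursors, fell from 10450.2 ± 2192 to 3479 ± 501. Of 24 genes typical of the 2-cell embryo 4 were higher and 0 lower, with Zscan4d, one of several near-identical copies and so uncertain, at 907 ± 459.8 in WT and 4518 ± 1107 in CKO.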
